A study of Homo sapiens with 16 samples.

Results

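The 10 genes described here encode structural proteins of the melanosome (PMEL, MLANA, GPNMB), its membrane transporters, channels and receptor (OCA2, SLC45A2, SLC24A5, GPR143), and proteins that load or move it (RAB27A, RAB38, MLPH). They were chosen by function, and every deposited peak that overlapped the body of one of them, or 10 kb on either side, was collected. That gave 142 peaks over the 10 genes, set beside the same windows of all 20037 protein-coding genes on chromosomes 1 to 22, X and Y. The genes received unequal numbers of peaks, with 38 at RAB27A, 30 at RAB38, 17 at SLC24A5, 14 at MLANA, 14 at MLPH, 13 at PMEL, 9 at GPNMB, 5 at SLC45A2, 2 at GPR143 and 0 at OCA2.

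The data are CUT&RUN profiles, in which an antibody guides a nuclease to its target in isolated nuclei and the released DNA fragments are sequenced. All samples came from WM164, a human melanoma line, grown in culture and made to overexpress either GFP, as the control, or the transcription factor MAFG. In each of these lines, called GFP cells and MAFG cells below, 3 libraries were made with anti-MAFG, 3 with anti-MITF and 1 with anti-H3K4me3. The series also lists 1 sample per line with anti-rabbit IgG as the negative control, and these 2 samples were not analysed here. The labels do not say whether the overexpressing cells are 1 clone or a pool, nor whether the 3 replicates are separate cultures, so the spread between libraries may be technical.

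Melanosomes are lysosome-related organelles in which pigment cells make and store melanin. PMEL forms the amyloid fibrils on which melanin is laid down, the transporters set the pH and ion content of the organelle, and RAB GTPases with their effectors carry cargo to it and carry it along actin. MITF is the lineage transcription factor of melanocytes and binds E-box sequences (CACGTG) and the related M-box core CATGTG, and genes of pigmentation are among its best known targets. MAFG is a small MAF protein, which lacks an activation domain of its own and binds DNA as a dimer at MAF recognition elements. H3K4me3 is a histone mark found at the start of active genes.

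The peak lists of GFP cells were much longer than those of MAFG cells, and every comparison of the lines has to be read against that. A list of either factor held 14879 to 26221 peaks in GFP cells but 1836 to 2818 in MAFG cells, while the H3K4me3 lists held 13580 and 11582. Each list stems from a single library and carries no read total. Overexpression, the IgG sample of each line and the length of the lists differ together, so they cannot be told apart. Pairs of libraries of 1 group shared 33.3% to 44.9% of their peak base pairs, and none was a copy of another. H3K4me3 lay at the start of 6 of 6 melanocyte lineage markers and of 0 of 8 markers of keratinocytes, fibroblasts, leukocytes and endothelium in both lines, matching the labelled melanoma. Not all genes of pigment cells had it. TYRP1 and OCA2 had no H3K4me3 peak in their windows in either line, and GPR143 had none in MAFG cells. The mark of PMEL, 1 of the 6, is a broad peak shared with its neighbour CDK2.

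The promoters of the members differ in whether they carry a letter match for a MITF or MAF motif and in whether a peak covers them, and 6 of them are shown: 3 with a match and anti-MITF peaks, 1 with peaks and no match, and 2 with a match and no peak of either factor. RefSeq windows on GRCh38.p14 from 250 bases before to 50 after the start were found for 7 of the 10 genes, 12 windows in all, and none for PMEL, RAB38 and SLC45A2. The 250 bases before the start are printed 5′ to 3′ on the strand of the gene, with capitals for each match of a motif, searched on both strands. The motifs were the E-box CACGTG, the M-box core CATGTG, the AP-1 site TGAGTCA that lies within the MAF recognition element, the core TGCTGA of one side of that element, which overlaps the AP-1 site there, and the antioxidant response element core TGACNNNGC.
GPNMB promoter, + strand, chr7:23246525-23246774: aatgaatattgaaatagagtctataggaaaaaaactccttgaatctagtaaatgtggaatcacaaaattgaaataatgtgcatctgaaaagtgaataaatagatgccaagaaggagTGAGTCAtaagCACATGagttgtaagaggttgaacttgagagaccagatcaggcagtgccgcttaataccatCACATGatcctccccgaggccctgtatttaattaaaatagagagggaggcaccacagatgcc
SLC24A5 promoter, + strand, chr15:48120740-48120989: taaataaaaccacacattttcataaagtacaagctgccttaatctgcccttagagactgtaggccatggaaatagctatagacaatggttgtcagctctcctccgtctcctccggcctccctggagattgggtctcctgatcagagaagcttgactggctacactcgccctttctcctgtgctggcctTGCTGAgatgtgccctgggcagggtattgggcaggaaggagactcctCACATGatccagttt
MLPH promoter of the second start, + strand, chr2:237487001-237487250: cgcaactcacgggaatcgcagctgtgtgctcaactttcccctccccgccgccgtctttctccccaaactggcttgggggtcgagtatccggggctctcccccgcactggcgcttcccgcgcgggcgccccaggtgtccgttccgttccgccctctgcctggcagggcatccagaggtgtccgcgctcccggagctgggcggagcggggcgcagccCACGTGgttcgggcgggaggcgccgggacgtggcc
RAB27A promoter of an internal start, − strand, chr15:55270400-55270649: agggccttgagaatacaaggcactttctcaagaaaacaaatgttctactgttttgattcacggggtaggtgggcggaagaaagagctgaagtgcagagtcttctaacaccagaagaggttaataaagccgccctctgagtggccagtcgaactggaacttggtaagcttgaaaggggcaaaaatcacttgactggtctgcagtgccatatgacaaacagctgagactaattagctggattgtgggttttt
GPR143 promoter, − strand, chrX:9765848-9766097: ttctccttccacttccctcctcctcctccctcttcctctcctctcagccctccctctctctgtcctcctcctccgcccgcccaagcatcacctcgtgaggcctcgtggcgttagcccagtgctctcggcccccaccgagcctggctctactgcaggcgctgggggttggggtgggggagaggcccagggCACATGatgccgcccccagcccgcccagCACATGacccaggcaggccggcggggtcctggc
OCA2 promoter, − strand, chr15:28099316-28099565: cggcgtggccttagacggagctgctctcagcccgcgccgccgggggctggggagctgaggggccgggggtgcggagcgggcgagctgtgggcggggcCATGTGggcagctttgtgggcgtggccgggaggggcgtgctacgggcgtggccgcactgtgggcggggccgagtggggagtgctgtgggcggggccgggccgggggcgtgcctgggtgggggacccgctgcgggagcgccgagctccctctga

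In the GPNMB promoter CATGTG began 123 and 62 bases upstream of the start, each on the opposite strand and so printed as its reverse complement, and TGAGTCA began 134 bases upstream. SLC24A5 had CATGTG 15 and TGCTGA 62 bases upstream, and MLPH had CACGTG 35 bases upstream of its second start. In GFP cells anti-MITF peaks covered the GPNMB and SLC24A5 matches in 3 of 3 libraries and the MLPH match in 2 of 3, and in MAFG cells they covered the GPNMB matches in 2 of 3 and the others in 0. Anti-MAFG peaks covered the SLC24A5 matches in 1 of 3 GFP-cell libraries, and no match of GPNMB or MLPH. The RAB27A bases printed here held no match, yet they were overlapped by anti-MITF peaks of 3 of 3 libraries in GFP cells and 3 of 3 in MAFG cells. GPR143, with CATGTG at 61 and 33 bases, and OCA2, with CATGTG at 153 bases, had no anti-MITF or anti-MAFG peak over them. CATGTG stood in 4 of the 12 member windows and in 8.93% of 22199 windows of 15843 protein-coding genes, CACGTG in 1 of the 12 and in 8.34%, TGAGTCA in 1 and in 4.01%, TGCTGA in 2 and in 15.4%, and TGACNNNGC in 0 and in 13.8%. A match of letters is a description of the window and not a binding site.

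Anti-MITF peaks were found at most of the 10 genes, and at more of them than anti-MAFG peaks in both lines. A gene was counted in a group when at least 2 of its 3 libraries had a peak in the window. In GFP cells anti-MITF counted 8 of the 10 genes, against 49.1% of all protein-coding genes, and anti-MAFG counted 5, against 39.7%. In MAFG cells anti-MITF counted 5 (MLANA, RAB27A, RAB38, MLPH and GPNMB), against 8.46% of all genes, and anti-MAFG counted 1, RAB38, against 5.31%. With a peak required in 3 of 3 libraries, anti-MITF counted 7 in GFP cells (37.9% of all genes) and 4, all but GPNMB of those 5, in MAFG cells (5.04%). Anti-MAFG by that rule counted 3 (SLC24A5, RAB27A and RAB38; 26.5%) and 1 (3.41%). Without GFP-cell anti-MAFG replicate 2, the anti-MAFG count in GFP cells was 3, against 28.5% of all genes, with a peak needed in both other libraries. The 4 genes with anti-MITF in 6 of 6 libraries were MLANA, RAB27A, RAB38 and MLPH, against 4.99% of all genes. No member was marked in 3 of 3 MAFG-cell and 0 of 3 GFP-cell libraries, which was rare for anti-MAFG (0.105% of all genes) and for anti-MITF (0.00499%). H3K4me3 had a peak in the window of 9 genes in GFP cells, against 65.1%, and of 8 in MAFG cells, against 60.8%.

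The share of members stood furthest above that of all genes in the anti-MITF libraries of MAFG cells. Per library, 7, 8 and 8 members had an anti-MITF peak in the GFP line, whereas 6, 4 and 5 did in the MAFG line. For anti-MAFG 5, 5 and 4 members did in the GFP line, whereas 1, 1 and 2 did in the MAFG line. The ranges of the lines did not overlap for either antibody, and neither did those of all genes, at 48.6% to 49.2% against 8.40% to 9.74% for anti-MITF and 30.8% to 45.3% against 5.34% to 7.61% for anti-MAFG. The member genes are longer than most, with a median of 46.7 kb (12.6 to 380 kb) against 24.1 kb, and a longer window can hold more peaks. With only 5 kb around a start in place of the gene body, anti-MITF counted 8 members against 35.2% of all genes in GFP cells and 4 against 4.20% in MAFG cells. The bar plot of shares sets the members beside all genes for each antibody and line.

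**Figure D1:**
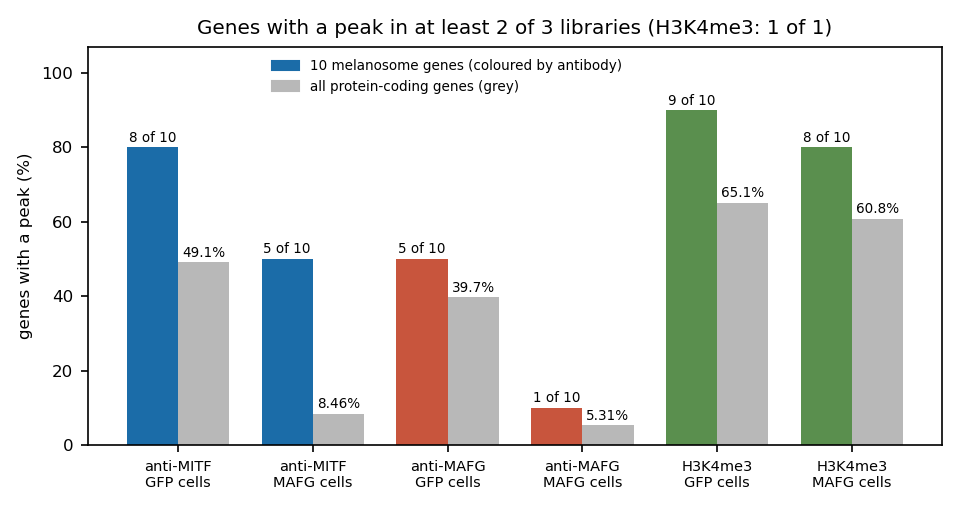
Percent of genes (y axis) with a peak in the gene body or 10 kb on either side in at least 2 of 3 libraries (1 of 1 for H3K4me3), for each antibody and line (x axis); coloured bars are the 10 melanosome genes and grey bars all 20037 protein-coding genes. In anti-MITF libraries of MAFG cells 5 of 10 members stand beside 8.46% of all genes, and in anti-MAFG libraries of the same cells 1 of 10 beside 5.31%.

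When each anti-MITF and anti-MAFG list was limited to its 1836 peaks of highest fold, GFP cells no longer had more members than MAFG cells, and the counts differed by 1 gene. Anti-MITF then counted 3 members in GFP cells (RAB38, MLPH and GPNMB; 7.06% of all genes) and 4 in MAFG cells (MLANA, RAB27A, RAB38 and MLPH; 6.84%). Anti-MAFG counted 0 in GFP cells, against 5.17% of all genes, and still RAB38 alone in MAFG cells, against 4.76%.

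Among the structural genes, GPNMB, a transmembrane glycoprotein of melanosomes and lysosomes, had the strongest anti-MITF peaks in GFP cells. They lay over its start, in a merged site at chr7:23245275-23247761, with fold enrichments of 16.6, 17.7 and 16.6 in the 3 GFP-cell libraries. These ranked 373 of 19828, 198 of 20117 and 327 of 20102 peaks in their own lists, so all were in the top 1.88%. In MAFG cells replicates 1 and 3 had a peak there with fold 6.96 and 4.79, at rank 1109 of 2491 and 2229 of 2495, and replicate 2 had none. Anti-MAFG gave a single peak, of fold 5.60, in GFP-cell replicate 1 and none in the other 5 libraries.

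MLANA, the melanoma antigen MART-1 that takes part in PMEL maturation, had its most regular site not at the start but 5.27 kb inside the gene, at chr9:5895382-5896755. Anti-MITF peaks were present there in 6 of 6 libraries, with fold 9.38, 10.8 and 8.31 in GFP cells, and with 7.72, 6.95 and 7.98 in those with MAFG. Anti-MAFG peaks fell on the same site in GFP-cell replicates 2 and 3, at fold 6.60 and 4.58, and in MAFG-cell replicate 3, at fold 7.28. No H3K4me3 peak covered the site in either line. Over the MLANA start itself, anti-MITF peaks were called in GFP-cell replicates 1 and 2 (fold 6.48 and 4.73) and in no MAFG-cell library.

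PMEL, the fibril protein, had anti-MITF peaks in 3 of 3 GFP-cell libraries and none in MAFG cells, a pattern shared by 24.6% of all genes. It had no anti-MAFG peak in any of 6 libraries. The PMEL window also holds its neighbour CDK2, a cell cycle kinase gene with an end close beside the upper end of PMEL, and 3 of its 4 sites had their summits nearer to CDK2 than to PMEL. The site at the upper end of PMEL itself, chr12:55964755-55966939, carried fold values of 5.24, 3.37 and 3.65, of which the last 2 ranked 19970 of 20117 and 19904 of 20102. These are among the weakest peaks of their lists. The other site marked in 3 of 3 libraries, with fold 7.83, 6.76 and 6.09, lay 3.93 kb beyond that end of PMEL and 2.15 kb from the nearer end of CDK2.

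The genes for transporters and the receptor had fewer factor peaks, and SLC24A5 was the exception. SLC24A5 is a potassium-dependent sodium-calcium exchanger whose variants affect human pigmentation. Its start lay in a site at chr15:48120005-48122994 that both antibodies marked in 3 of 3 GFP-cell libraries. The highest anti-MITF fold values in the site were 8.45, 7.69 and 11.6 and the highest anti-MAFG values 6.07, 6.48 and 8.32. Anti-MITF peaks covered the start itself in each replicate, but an anti-MAFG peak did so only in replicate 3. The anti-MAFG peak of fold 6.07 had its summit 1.49 kb downstream of the start. In MAFG cells only anti-MITF replicate 1 had a peak, of fold 6.24 at rank 1461 of 2491. With anti-MAFG the lines therefore did not overlap in calls (3 of 3 against 0 of 3), which held for 19.3% of all genes, RAB27A among them.

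SLC45A2, a membrane transporter needed for melanosome pH, had anti-MITF peaks at its upper end in GFP-cell replicates 2 and 3, of fold 4.62 and 5.75, and none elsewhere but for 1 further peak of fold 5.29 in replicate 2. Neither antibody marked it in MAFG cells. GPR143, the ocular albinism receptor on the melanosome membrane, and OCA2, the P protein needed for the chloride current of melanosomes, had no factor peak in any of the 12 libraries, which held for 33.4% of all genes. OCA2 also lacked H3K4me3, and 24.9% of all genes had no peak in any of the 14 lists. This was so although OCA2 is, with 380 kb, the longest of the members.

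Among the transport genes, RAB38 gave the strongest anti-MITF signal of the 10. RAB38 is a small GTPase that sorts cargo such as tyrosinase to melanosomes. Its leading site, chr11:88150892-88154106, lay inside the gene body, 23.0 kb from its upper end. Anti-MITF fold values there were 28.0, 21.3 and 24.7 in GFP cells, ranking 13 of 19828, 68 of 20117 and 38 of 20102. In MAFG cells they were 13.9, 11.6 and 15.9, ranking 44 of 2491, 105 of 2116 and 20 of 2495. The site thus stood near the top of all 6 lists, and RAB38 was the only member with a peak in the top 10% of each, which held for 0.289% of all genes. Its summits in these 6 libraries lay 23.0 to 23.1 kb from the gene end.

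The same RAB38 site carried anti-MAFG peaks of fold 9.81 and 9.01 in GFP-cell replicates 1 and 2 and none in replicate 3 or in MAFG cells. It had no H3K4me3 in either line. A second site, chr11:88016389-88017250, lay 159 kb inside the same end of the gene record and had the opposite make-up. It had anti-MAFG peaks in 3 of 3 MAFG-cell libraries, of fold 7.51, 8.14 and 13.1 at rank 771 of 1836, 547 of 1849 and 205 of 2818. In GFP cells anti-MAFG marked it in replicates 2 and 3, of fold 3.43 and 5.19 at rank 23202 of 23409 and 9719 of 14879. Anti-MITF and H3K4me3 were absent from it in all libraries. Over its whole window RAB38 therefore had a peak in all 12 libraries, as did 0.789% of all genes. In MAFG cells its anti-MAFG peaks were all at the 159 kb site. The MAFG-cell peaks of the 2 antibodies were, however, at different places.

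At the upper end of RAB38, where H3K4me3 lay in both lines, anti-MITF marked GFP-cell replicates 1 and 3 (fold 6.70 and 8.95) and MAFG-cell replicate 2 (fold 5.57), and anti-MAFG only GFP-cell replicate 1 (fold 5.18). A site 4.55 kb inside this end had anti-MITF peaks in 3 of 3 GFP-cell libraries, of fold 6.64, 8.28 and 5.74, and none in MAFG cells. The RAB38 gene record spans 372 kb, so that most of its window is far from this end. The record was taken as listed and can be longer than the main transcript of the gene. The 159 kb site may therefore lie outside that transcript, which was not examined. With only 5 kb around a start or gene end, RAB38 counted for neither antibody in MAFG cells. Anti-MAFG then counted 0 members there (1.62% of all genes) and anti-MITF 4 (MLANA, RAB27A, MLPH and GPNMB; 4.20%).

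MLPH, melanophilin, links RAB27A on the melanosome to the myosin motor. Its leading site lay 3.20 kb upstream of the first start, at chr2:237481835-237484118, outside H3K4me3 in both lines. Anti-MITF marked it in 6 of 6 libraries, with fold 19.9, 20.3 and 10.7 in GFP cells, at rank 145, 84 and 2004. In MAFG cells the values were 8.76, 10.2 and 10.04, at rank 468, 205 and 237. Anti-MAFG peaks of fold 3.64 and 5.01 were called there in GFP-cell replicates 1 and 2 only. The region of its starts was weaker in each GFP-cell library, with best anti-MITF peaks of fold 5.17, 6.18 and 5.16, and had none in MAFG cells. The peaks of replicates 2 and 3 covered the CACGTG printed above, while the replicate 1 peak of fold 5.17 lay at the first start and a further one, of fold 5.08, beyond the CACGTG.

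RAB27A, the GTPase that tethers mature melanosomes to the transport machinery, had several sites and has 5 listed starts between 55237393 and 55319123 on chromosome 15, of which the 2 with the lowest coordinates had no factor peak over their promoter windows. The site at chr15:55269106-55271062, over the internal starts at 55270399 and 55270922, was marked by anti-MITF in 6 of 6 libraries. Highest fold values were 7.20, 8.39 and 8.95 in GFP cells, and 7.34, 6.58 and 6.54 in those with MAFG. The peak of fold 7.20 ended short of both starts, and the replicate 1 peak over them had fold 6.46. The MAFG-cell peaks covered 55270399 but not 55270922, at rank 979 of 2491, 1146 of 2116 and 1250 of 2495. Unlike the RAB38 and MLPH sites, this site lay in H3K4me3 in both lines. Anti-MAFG marked it in GFP-cell replicates 1 and 2 (fold 6.79 and 6.57) and in no MAFG-cell library. The anti-MAFG peak of replicate 2 over the starts had fold 6.36.

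A neighbouring RAB27A site, 2.61 kb downstream of an internal start, had both antibodies in 3 of 3 GFP-cell libraries, with anti-MITF at fold 7.31, 5.92 and 7.66 and anti-MAFG at 8.30, 6.48 and 7.60. It had no factor peak in MAFG cells. A further site 19.5 kb upstream of the internal starts gave the highest anti-MITF values of the gene, 10.9, 10.2 and 9.05, in GFP cells. Anti-MAFG marked this site in GFP-cell replicates 1 and 2 (fold 7.98 and 3.53), and H3K4me3 lay over it in both lines. MAFG cells again had no factor peak there. The outermost start, which lies beside that of PIGB, had anti-MITF peaks over it in GFP-cell replicates 1 and 3 (fold 7.24 and 6.09). In the same merged site, anti-MITF of MAFG-cell replicate 2 (fold 5.55) and anti-MAFG of GFP-cell replicate 3 (fold 3.89) had summits 1.21 and 0.886 kb upstream of that start, nearer to PIGB. At the other edge of the window, 2 anti-MAFG peaks of GFP-cell replicate 1 lay beside another gene, RSL24D1.

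**Figure D2:**
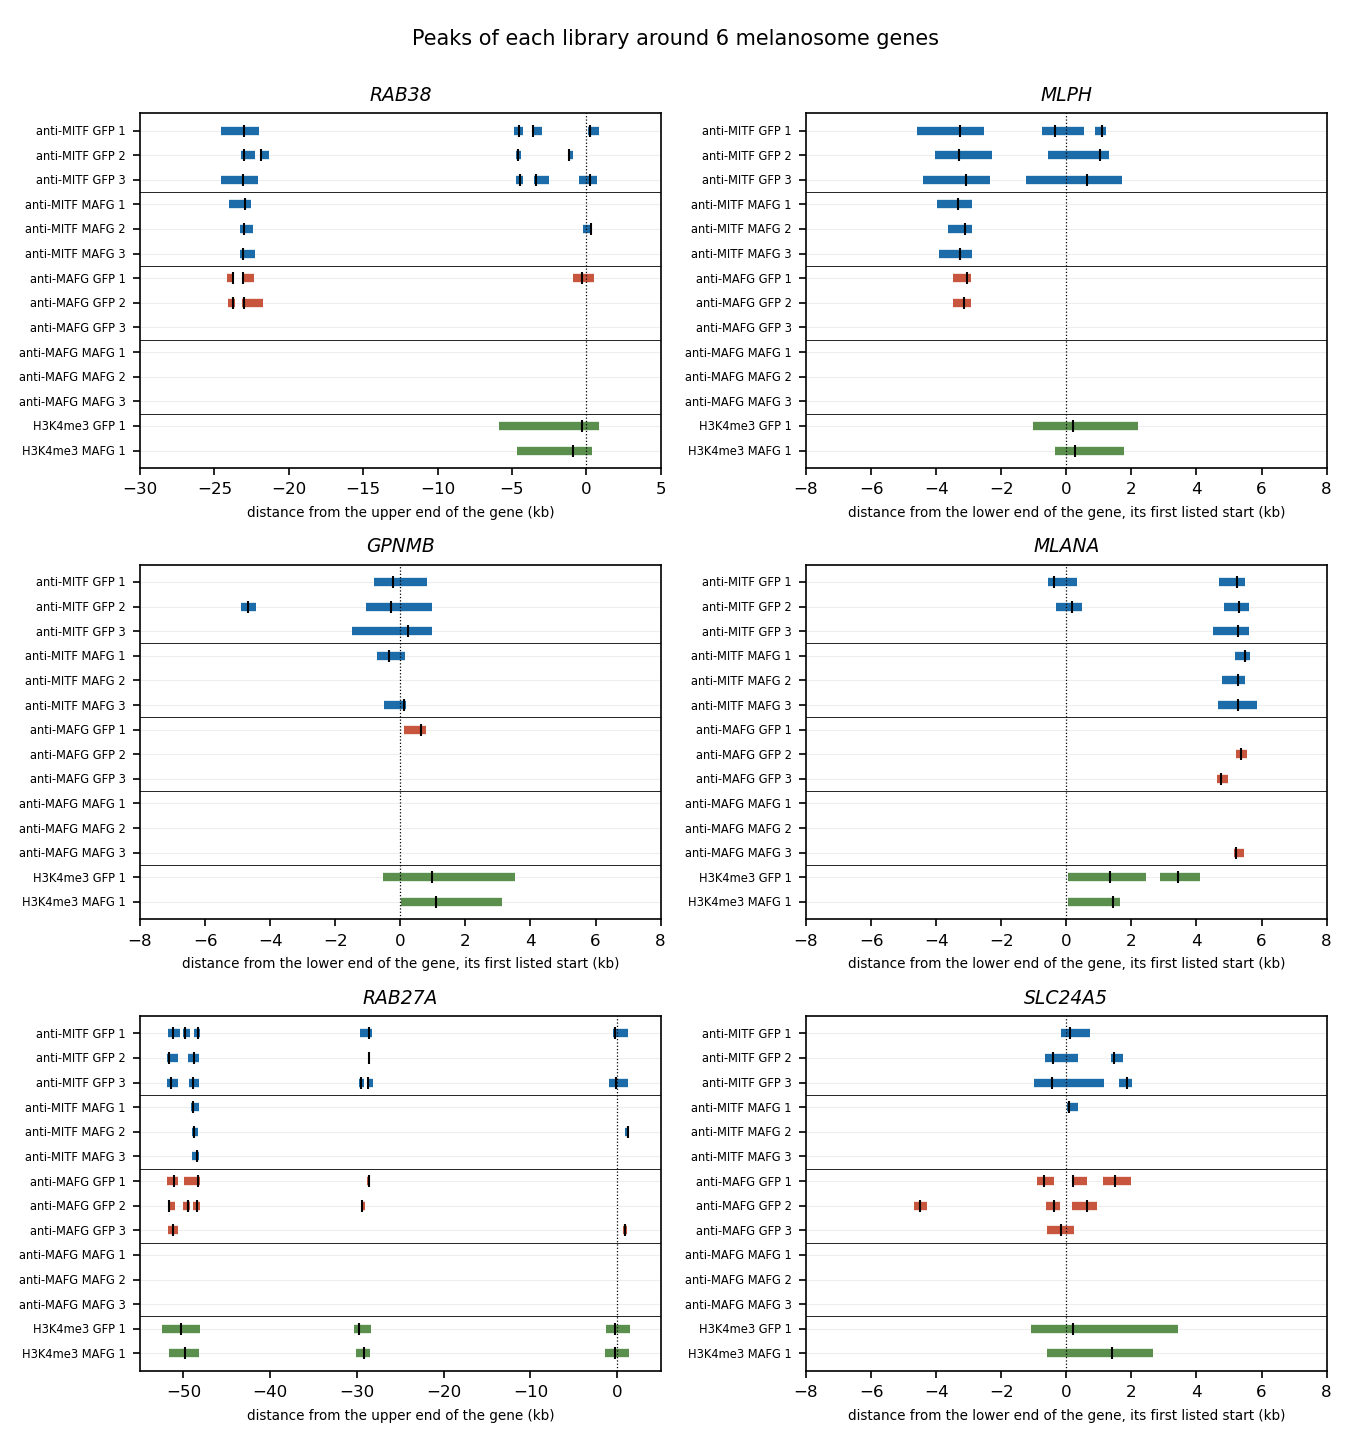
Peaks of each library (rows: antibody, line and replicate) around 6 of the genes, drawn to scale by distance in kb along the chromosome (x axis) from the upper gene end for RAB38 and RAB27A and from the first start for the others; bars are peaks, coloured by antibody, and black ticks their summits. The anti-MITF peaks 23.0 kb inside RAB38, 3.20 kb upstream of MLPH and 5.27 kb inside MLANA recur in 6 of 6 libraries, and no anti-MAFG peak of MAFG cells is drawn except the 1 in MLANA; the RAB38 site at 159 kb lies beyond the axis.

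The sites differed in where they stood in each library's own list. A rank is a place within 1 list, and ranks from lists of unequal length show no change. The 23.0 kb RAB38 site lay in the top 0.0656% to 0.338% of the GFP-cell lists and the top 0.802% to 4.96% of the MAFG-cell lists. The MLPH upstream site lay in the top 0.418% to 9.97% and 9.50% to 18.8%. The GPNMB start lay in the top 0.984% to 1.88% in GFP cells and at 44.5% and 89.3% in the 2 MAFG-cell lists that had it. The rank plot by site shows these positions for 7 sites.

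**Figure D3:**
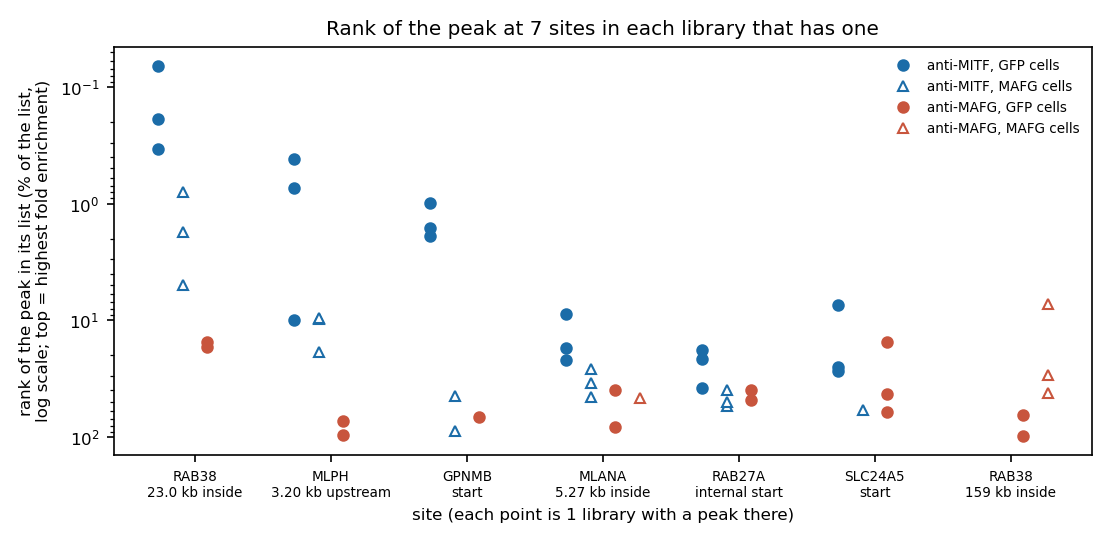
Rank of the peak at 7 sites (x axis) in each library that has one, as a percent of that library's list by fold enrichment (y axis, log scale, highest fold at the top); filled circles are GFP cells, open triangles MAFG cells, blue anti-MITF and red anti-MAFG. The RAB38 site 23.0 kb inside the gene stays in the top 4.96% of all 6 anti-MITF lists, and the RAB38 site at 159 kb holds only anti-MAFG points.

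**Figure D4:**
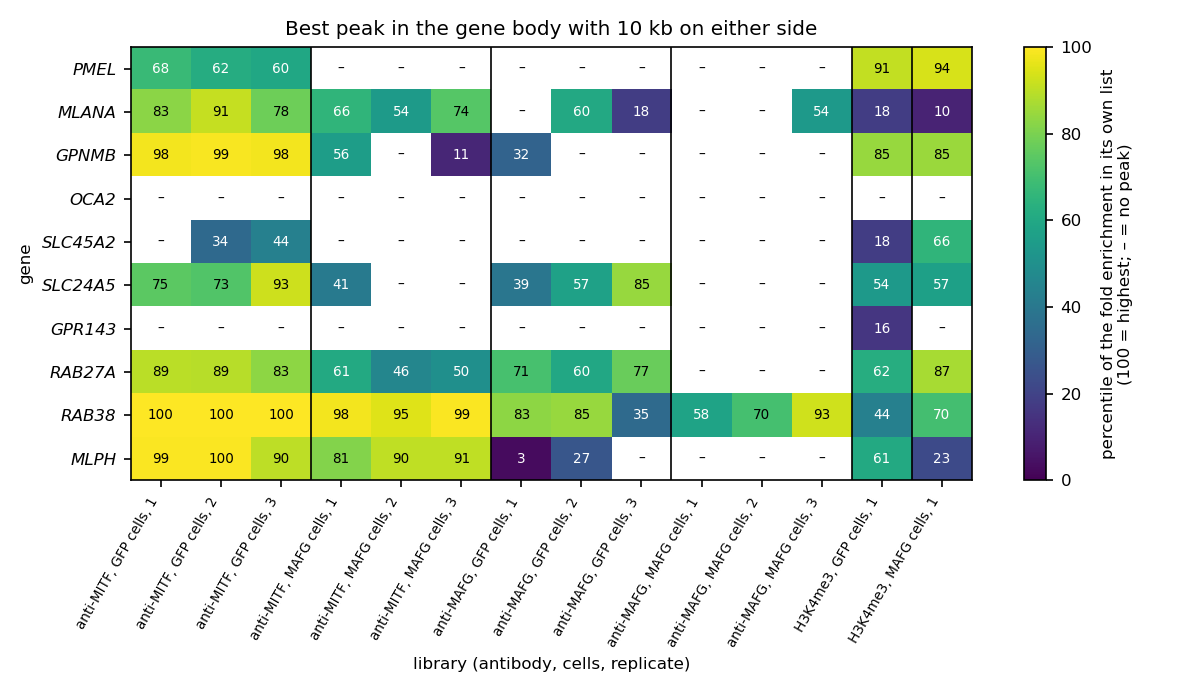
Best peak of each gene (rows) in each of 14 libraries (columns), as the percentile of its fold enrichment in the library's own list (colour and number, 100 is the highest; a dash means no peak). RAB38 is filled in every column, OCA2 in none, and the anti-MAFG columns of MAFG cells hold only RAB38 and 1 MLANA peak; the highest H3K4me3 value of the RAB27A row in MAFG cells comes from a peak at RSL24D1.

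Merging the factor peaks of the 12 libraries gave 31 sites at the members and 44204 in the genome. Of 18 member sites with anti-MITF in at least 2 GFP-cell libraries, 15 (83.3%) overlapped H3K4me3, against 42.7% of all such sites. Anti-MAFG was also found in at least 2 GFP-cell libraries at 7 of the 18 (38.9%, against 59.7% of all). In MAFG cells 5 of the 18 still had anti-MITF in at least 2 libraries (27.8%, against 11.3%), namely the sites in MLANA, RAB27A, RAB38, MLPH and GPNMB described above. None of these 5 had anti-MAFG in at least 2 MAFG-cell libraries, against 14.4% of all such sites. Of 9 member sites with anti-MAFG in at least 2 GFP-cell libraries, 1 (11.1%, against 6.96%) had it in at least 2 MAFG-cell libraries, the RAB38 site at 159 kb. Another of the 9, at the edge of the SLC24A5 window (chr15:48108684-48111056), counts a library whose peak lies outside that window. Sites seen in 1 library only made up 32.3% at the members and 35.4% in the genome. The sites of the whole genome include those outside gene windows, so the 2 sets are unlike. Several member sites also lie in the same H3K4me3 peak, as at PMEL, RAB38 and RAB27A, and are not separate. These shares are descriptions without a test.

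The calls were compared between lines and between antibodies by a stratified exact permutation test over the 12 libraries. It ran on all 20037 genes with Benjamini-Hochberg adjustment. Its smallest possible p is 0.005, which needs a split of 3 of 3 against 0 of 3 in both strata. No gene passed an adjusted p of 0.05 for the line (0.00% of all genes; 3880 genes, 19.4%, at an unadjusted p under 0.05, all higher in GFP cells; lowest adjusted p 0.0521). SLC24A5 had the largest difference among the members, peaks in a share 0.833 higher in GFP than in MAFG cells, with an exact permutation p of 0.02 and an adjusted p of 0.103. PMEL and RAB27A differed by 0.5 (exact permutation p = 0.1, adjusted p = 0.267 each), and RAB38 by 0. The calls of PMEL and RAB27A were split by line for 1 antibody only, so that 0.1 was the lowest p they could reach. RAB38, with a peak in all 12 libraries, could show no difference in this test. The median difference over the members was 0.333, as over all genes. SLC24A5 passed without MAFG-cell anti-MITF replicate 1 (adjusted exact permutation p = 0.0483), as did 2076 of all genes, and PMEL and SLC45A2 passed with 50 kb on either side of the gene (0.0352 each), as did 2849. With 1836 peaks per list the difference was 0 for SLC24A5, PMEL and SLC45A2, -0.5 for MLANA, RAB27A and RAB38, -0.167 for MLPH and 0.333 for GPNMB.

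For the antibody, no gene passed either (0.00% of all; 328 genes, 1.64%, at an unadjusted p under 0.05, of them 270 higher for anti-MITF and 58 for anti-MAFG; lowest adjusted p 0.860). MLPH and GPNMB had the largest differences, a share of libraries with a peak 0.667 higher for anti-MITF, with exact permutation p of 0.05 and 0.08 and an adjusted p of 0.860 for both. Of the 10 members 7 had a higher share for anti-MITF, 3 were equal and 0 lower, with a median difference of 0.417. Over all genes the median difference was 0, with 33.8% higher for anti-MITF and 17.8% higher for anti-MAFG.

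H3K4me3, with 1 library per line and so no replicate check, lay within 1 kb of a start or gene end at 9 members in GFP cells (57.0% of all genes) and 8 in MAFG cells (53.0%). The broadest and highest peak in a member window, of 12.7 kb in GFP cells and 12.4 kb in MAFG cells, covered the upper end of PMEL and CDK2, with fold 70.1 and 36.7 at rank 1250 of 13580 and 683 of 11582. Its summits lay nearer to CDK2 (259 and 269 bp) than to PMEL (0.38 and 0.39 kb), and counting only peaks nearest to a member, PMEL had no H3K4me3 peak in MAFG cells. GPNMB followed, with fold 59.5 and 28.3 at rank 2090 and 1730. At the low end of both lists stood MLANA, with fold 8.67 and 5.91 at rank 11127 and 10412. GPR143 had a peak of fold 7.66 over its start in GFP cells, at rank 11427, and none in its window in MAFG cells, which held for 2.99% of all genes.

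The other members lay between these, and 3 of them had unlike places in the 2 H3K4me3 lists. SLC24A5 had fold 30.5 and 17.2 at rank 6297 and 4987, and RAB27A, at its outermost start, 37.2 and 18.7 at rank 5125 and 4425. MLPH stood lower in the MAFG-cell list, with fold 36.2 at rank 5308 in GFP cells and 8.60 at rank 8973 in MAFG cells. SLC45A2 and RAB38 stood higher in it, SLC45A2 with fold 8.72 at rank 11120 and then 19.96 at rank 3990, and RAB38 with 24.1 at rank 7651 and then 21.6 at rank 3482. As the lists differ in length and have no replicates, these ranks are positions within each list.

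**Figure D5:**
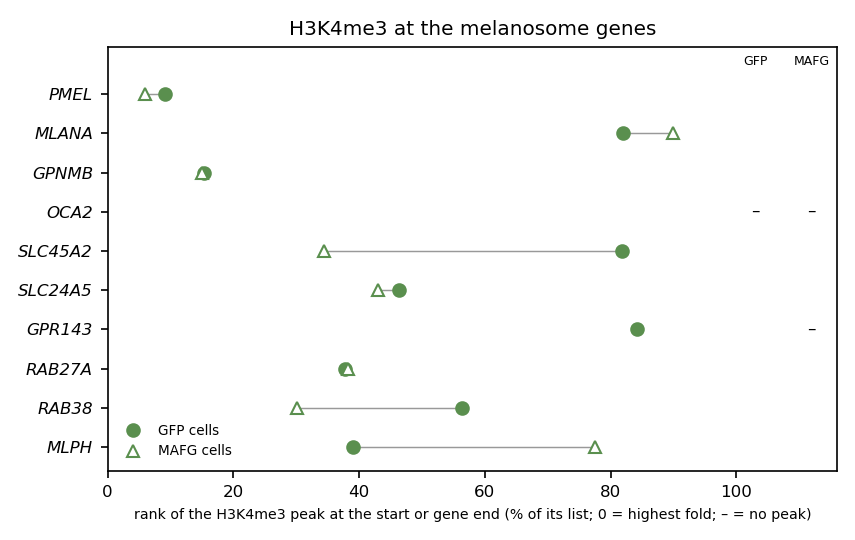
Rank of the H3K4me3 peak within 1 kb of a start or gene end of each gene (rows), as a percent of the library's list by fold enrichment (x axis, 0 is the highest fold), with 1 library per line; filled circles are GFP cells, open triangles MAFG cells, and dashes at the right mark no peak. The peak that PMEL shares with CDK2 and that of GPNMB stand near the top in both lines, MLPH lower in the MAFG-cell list, SLC45A2 and RAB38 higher in it, and OCA2 has no peak.

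A wider list of 22 genes of melanosome biogenesis, cargo sorting, transport and pigment cells was counted by the same rule. Anti-MITF counted 19 of the 22 in GFP cells (49.1% of all genes) and 7 in MAFG cells (8.46%; HPS1, HPS4, HPS5, RAB32, MYO5A, MREG and CD63). Anti-MAFG counted 14 (39.7%) and 4 (5.31%; HPS1, MREG, KIF13A and CD63). H3K4me3 was present at 22 of 22 in both lines (65.1% and 60.8%). For 6 genes of this list the best rank in any MAFG-cell list of either antibody is given. As these lists differ in length and antibody, the ranks do not order the genes. Anti-MITF gave MYO5A (298 of 2495), the myosin that MLPH binds, and CD63 (1028 of 2491), a tetraspanin that takes part in PMEL sorting. It also gave HPS1 (505 of 2491) and HPS4 (734 of 2116), the subunits of the exchange factor for RAB38 and RAB32. Anti-MAFG gave MREG (311 of 1849), melanoregulin, and KIF13A (718 of 2818), a kinesin for melanosome cargo. Of the melanin synthesis enzymes, TYR had peaks of both antibodies in all 12 libraries and DCT of both in 3 of 3 GFP-cell libraries only. TYRP1 had peaks of anti-MAFG in 3 of 3 GFP-cell libraries only. H3K4me3 had a peak in the windows of TYR and DCT in both lines and in that of TYRP1 in neither.

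The genes most like RAB38 in the rank percentile of their best peak over the 14 libraries, by Euclidean distance, were XRN2 at 47.7, PDXDC1 at 59.7 and TMTC1 at 63.9. In each of these 3, the best anti-MITF peak stood no lower than percentile 79.8 in every library of either line. The anti-MITF lists were among the 14 used to choose these genes, so high values there follow from the choice.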

How the data were processed

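CUT&RUN was done with a commercial kit on nuclei of WM164 cells, per the labels' protocols. Per the submitters' processing notes, the tools were cutadapt 1.8.1, Bowtie2 2.4.1, MACS2 2.1.1.20160309, ChIPseeker 1.32.1 and deepTools, and the build GRCh38 (hg38); their settings, order and the control used in calling are not given in the sources used here. The authors deposited 14 peak lists, 1 per library, each peak with a fold enrichment (a linear ratio), a score, and the −log10 of its p-value and q-value. The lowest deposited −log10 q was 2.00. The lists hold no read counts, so depth is unknown and no interval is given.

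A gene's window was its RefSeq body (GRCh38.p14) with 10 kb on either side, and a peak counted when it overlapped by at least 1 bp. Starts came from the RefSeq promoter table (15843 of 20037 coding genes, 79.1%), otherwise both gene ends served. Sites are factor peaks of the 12 libraries merged where they overlap. Fold enrichments were ranked within each list only. All 10 genes are named; of the 22-gene list, those counted in a MAFG-cell group, best rank first (6 at most); for the member with peaks in most libraries, its 3 nearest genes. Members and lists were chosen with earlier results of these data known. The test of calls (Python 3.11.15, numpy 2.4.6, pandas 2.3.3, scipy 1.17.1) was two-sided, with 400 assignments, and was tested on simulated data. The alternatives were other windows, a stricter q, equal list lengths, a replicate block and leaving out each library, with 1 more (peaks nearest to the member only) chosen after seeing the data.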

Additional observations from a re-analysis of the deposited data

How the results depend on the processing

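Of 380 differences of the 10 genes under 19 alternatives, 251 kept their sign, 108 were 0 in both, 11 fell to 0, 6 left 0 and 4 turned; 3 came to pass the threshold. With 50 kb on either side, anti-MAFG counted 8 members in GFP cells (59.9% of all genes) and 2 in MAFG cells (10.1%), PMEL and SLC45A2 passed by cell line (2 members, adjusted exact permutation p = 0.0352 each, as did 2849 genes), and the antibody difference turned to -0.333 for SLC24A5 and was 0 for PMEL and SLC45A2. With 5 kb around a start, anti-MAFG counted 3 members in the GFP line (25.0% of all genes) and 0 in the MAFG line (1.62%). Keeping peaks whose −log10 q reached 5 left 3 for anti-MAFG in GFP cells (30.4%) and 3 for anti-MITF in MAFG cells (MLANA, RAB38 and MLPH; 5.48%). RAB27A and GPNMB were then no longer counted for anti-MITF in MAFG cells. With 1836 peaks per list, anti-MAFG counted 0 (5.17%) and anti-MITF 3 (7.06%) in GFP cells. The line difference then turned to -0.5 for MLANA, -0.5 for RAB27A and -0.167 for MLPH, went from 0 to -0.5 for RAB38, and fell to 0 for SLC24A5 (from 0.833), PMEL (from 0.5) and SLC45A2 (from 0.333); this alternative drops most GFP-cell peaks by construction. For the other settings that moved a value, the cause was not tested.

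Leaving out 1 of the GFP-cell anti-MAFG libraries gave 3 to 4 members for anti-MAFG in GFP cells, against 27.5% to 36.6% of all genes. The 3 came without replicate 2 (28.5% of all genes). A peak was then needed in 2 of the remaining 2 libraries. Members passing by cell line numbered 0 to 1, the 1 being SLC24A5 (adjusted exact permutation p = 0.0483) without MAFG-cell anti-MITF replicate 1, where 2076 of all genes passed; leaving out 1 of 7 other libraries let 2046 to 2634 genes pass and 0 members. Replicate numbers did not pair the libraries (correlation of same-numbered libraries -0.0148 to 0.0151 over 18 pairs). With the replicate block, whose smallest p is 0.03125, 0 members passed in either contrast, and SLC24A5 had an adjusted exact permutation p of 0.323. The nearest-peak alternative moved no count of members by over 1.5 times. Depth, which the lists do not give, and the missing genome sequence for motifs under peaks limit what can be said of weak sites.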
